A study of Mus musculus with 12 samples.

Results

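The oligodendrocyte lineage was followed through 31 genes, from the receptor that marks precursor cells to the proteins of the finished sheath, in sorted cells of the mouse cerebellum from P1 to P28. The genes were taken by symbol from the deposited table, and 31 of 31 were found among its 24421 entries. They were grouped by role into 2 precursor genes, 5 lineage transcription factors, 4 premyelinating genes, 10 genes of myelin structure, 4 enzymes of myelin lipid and acetate metabolism and 6 other genes of mature oligodendrocytes. The cells came from Aldh1l1-GFP reporter mice of both sexes on a C57/BL6J background, in which green fluorescent protein (GFP) is driven by the Aldh1l1 promoter, and were sorted for GFP by flow cytometry at postnatal day 1 (P1), day 7 (P7), day 14 (P14) and day 28 (P28). Each age had 3 libraries, the genotype was the same at each age, and the labels name no treatment. The sources used here do not say whether the replicates of an age are different animals or pools of animals, so the p-values measure the spread between these libraries. The sort selected GFP and carried no gate against oligodendrocytes in the methods read here. In such bulk RNA, fewer cells of a type and less RNA per cell cannot be told apart.

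Oligodendrocytes wrap axons in myelin, the lipid-rich membrane that speeds conduction. Their precursor cells carry the growth factor receptor PDGFRA and the proteoglycan NG2, divide, and settle in the white matter and the granular layer of the cerebellum. Cells that leave this state pass through a brief premyelinating stage marked by genes such as Gpr17, Bcas1 and Enpp6, and then switch on the genes of the sheath under the transcription factors OLIG2, SOX10 and MYRF. In the rodent cerebellum myelin is laid down largely in the first weeks after birth.

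Promoters of 5 members are shown because they belong to genes whose levels took different courses over the 4 ages. They are RefSeq sequences of the build GRCm38.p6, read 5′ to 3′ on the strand of the gene, and hold the 250 bases before the annotated start. Capitals mark each match, on either strand, to the MYRF motif (CTGGCAC or CTGGTAC), the SOX motif (ACAAAG or ACAATG) or the E-box CAGCTG that basic helix-loop-helix factors bind. The E-box and the MYRF motif can overlap by the shared letters CTG.
Pdgfra (chr5:75152001-75152250, plus strand): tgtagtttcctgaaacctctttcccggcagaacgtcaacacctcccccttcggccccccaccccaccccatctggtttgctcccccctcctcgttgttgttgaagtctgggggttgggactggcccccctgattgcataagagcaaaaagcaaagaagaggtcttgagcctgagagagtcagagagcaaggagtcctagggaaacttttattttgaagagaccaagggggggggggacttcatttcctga
Enpp6 (chr8:46986637-46986886, plus strand): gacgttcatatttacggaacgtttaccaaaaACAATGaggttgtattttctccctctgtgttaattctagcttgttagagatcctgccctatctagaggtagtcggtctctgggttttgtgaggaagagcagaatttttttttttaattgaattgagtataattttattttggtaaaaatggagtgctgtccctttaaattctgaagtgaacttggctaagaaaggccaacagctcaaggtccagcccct
Mobp (chr9:120149492-120149741, plus strand): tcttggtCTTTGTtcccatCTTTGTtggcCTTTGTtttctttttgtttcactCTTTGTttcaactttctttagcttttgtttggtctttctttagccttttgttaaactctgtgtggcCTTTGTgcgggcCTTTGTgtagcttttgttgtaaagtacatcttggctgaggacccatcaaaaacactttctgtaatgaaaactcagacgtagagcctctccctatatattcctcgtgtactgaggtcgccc
Cnp (chr11:100574689-100574938, plus strand): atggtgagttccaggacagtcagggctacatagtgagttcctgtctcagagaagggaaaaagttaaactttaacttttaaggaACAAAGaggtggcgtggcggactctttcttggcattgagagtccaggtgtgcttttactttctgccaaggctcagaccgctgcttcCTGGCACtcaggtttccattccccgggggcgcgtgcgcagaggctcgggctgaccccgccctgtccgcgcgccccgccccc
Mog (chr17:37023399-37023648, minus strand): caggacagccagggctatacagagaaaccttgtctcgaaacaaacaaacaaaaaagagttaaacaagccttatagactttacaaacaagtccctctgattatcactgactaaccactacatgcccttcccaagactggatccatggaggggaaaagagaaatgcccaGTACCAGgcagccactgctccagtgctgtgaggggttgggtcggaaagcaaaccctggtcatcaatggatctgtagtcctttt
The promoter of Pdgfra, the gene that fell throughout, held 0 matches to the MYRF motif and 0 to the SOX motif. The promoter of Mobp, the member with the largest first step, held 6 SOX matches, and that of Enpp6 held 1. The promoters of Cnp and Mog each held 1 MYRF match, at position -81 and -83 from the start. Matches did not sort by course. The promoter of Cspg4, like that of Pdgfra, held 0 MYRF and 0 SOX matches. So did those of Mal, Cldn11, Ugt8a, Pllp, Gpr37 and Plekhh1, all of which rose from P7 to P14. The promoter of Olig2, which was highest at P1, held 1 SOX match. Matches were not tested against the courses. RefSeq promoters were matched for 24 of the 31 members, with 31 promoters in all. No promoter of Bcas1, Fa2h, Gpr17, Mbp, Myrf, Olig1 or Trf was among those used here, which does not show that they lack a RefSeq promoter. Gpr17 and Mbp lie on the same chromosome, which was excluded when member promoters were taken. No such exclusion was made for all promoters, so the member shares and the shares of all promoters below may not cover the same chromosomes. A MYRF match lay in 5 of the 31 promoters (16.1%), or 4 of the 24 genes since overlapping promoters of Mag held 1 match in common, against 5.93% of all 32851 promoters of this length. A SOX match lay in 14 promoters (45.2%), against 25.2%, and the E-box in 3 (9.68%), against 13.0%. By gene, SOX matches lay in 11 of the 24, since Mag, Gal3st1 and Lpar1 had matches in several promoters. In the overlapping promoters of Mag and of Gal3st1 the same site was counted again. These shares describe letters in a short window and are not binding sites.

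Between 6399499 and 14733985 reads fell on genes in a library, and the values below are the authors' normalized counts, in which each library's reads are divided by one size factor. Aldh1l1, which drives the reporter, was present in each of the 12 libraries, from 936 to 6441 normalized counts. The 14 astrocyte markers summed to between 93482 and 119047 normalized counts at P1, 42480 and 74442 at P7, 234937 and 279926 at P14, and 520520 and 603744 at P28. Markers of other cells were present too, and they are given after the lineage genes. P14 replicate 3 had the lowest value of its age for 22 of the 31 members, P28 replicate 3 for 17 and P7 replicate 1 for 17, P7 replicate 3 had the highest for 20, and P7 replicate 2 had an endothelial marker sum of 10602 against 1718 and 2692 in the other P7 libraries. Counts of members are also given without P7 replicate 2, P14 replicate 3 and P28 replicate 3 together, and as ranges with each of the 12 libraries left out. For a gene without reads in a library, counting error alone allows up to 3 reads there (95% confidence).

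The share of the reads taken by the 31 genes lay between 0.123 and 0.179% at P1, 0.308 and 0.416% at P7, 2.58 and 3.29% at P14, and 0.816 and 1.26% at P28. The 4 ages did not overlap in this share. Mbp, which encodes myelin basic protein, alone took 0.988 to 2.07% at P14. Of the 31 members, 26 had their highest mean at P14, 4 at P1 (Pdgfra, Cspg4, Olig1 and Olig2), 0 at P7 and 1 at P28 (Nkx2-2). The map of levels by library shows the precursor genes brightest on the left and the myelin genes brightest in the P14 columns.

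**Figure D1:**
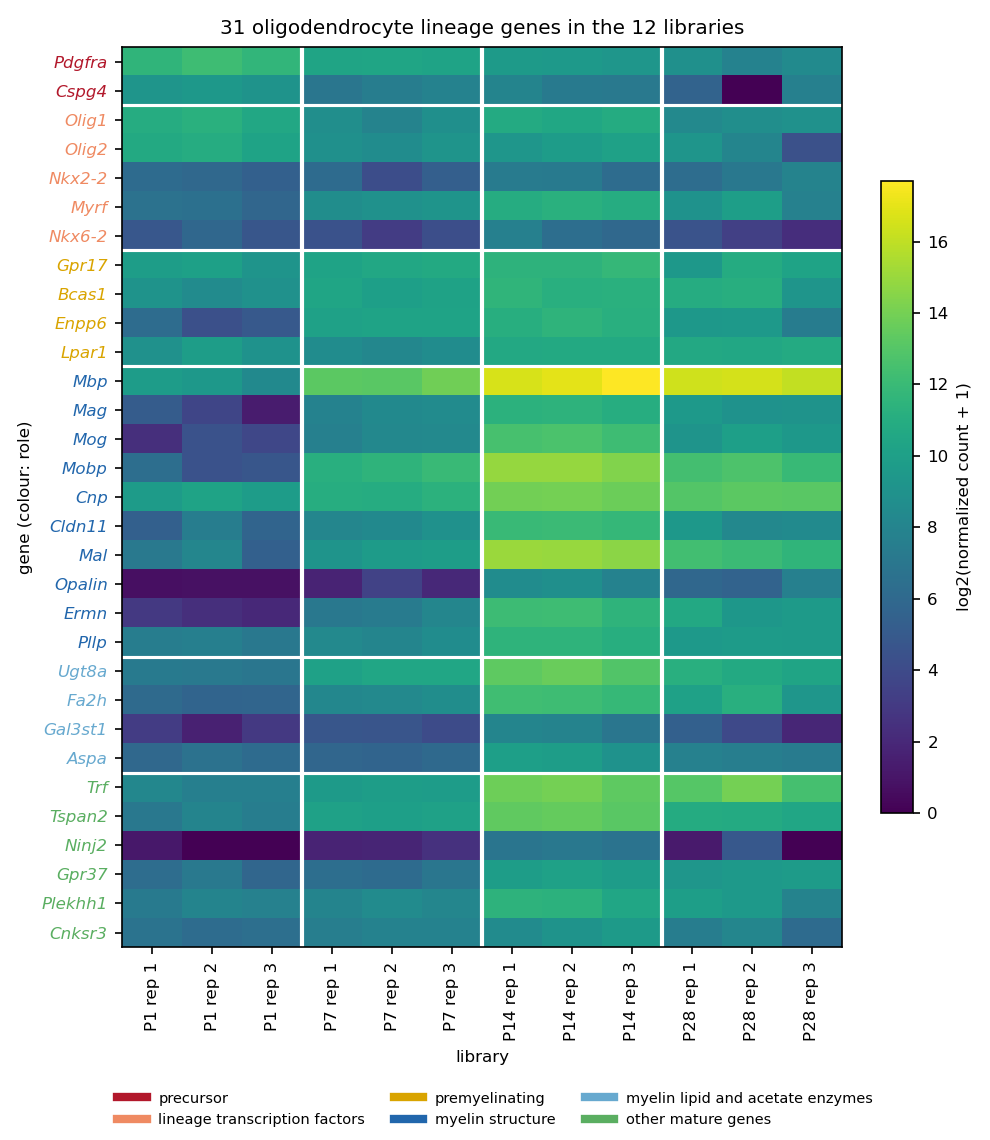
Levels of the 31 oligodendrocyte lineage genes (rows, grouped and coloured by role) in the 12 libraries (columns, 3 per age), as log2(normalized count + 1) on a colour scale from 0. The precursor genes were highest at P1, and the 10 genes of myelin structure, the 4 lipid and acetate enzymes and the 6 other mature genes had their highest means at P14.

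Each step was tested with limma on log2(normalized count + 1), so that fold changes of low genes are understated, and a gene was called at an adjusted p under 0.05 over the 15464 genes with at least 10 normalized counts in at least 3 libraries. All 31 members passed this filter. Ninj2 passed through its P14 libraries, with 4 of 12 libraries at 10 or more, so its difference from the other ages follows in part from the filter. From P1 to P7, 16 of the 31 members rose and 3 fell, where 3.47% of all genes tested rose and 4.24% fell. From P7 to P14, 25 rose and 1 fell, where 10.8% of all genes rose and 10% fell. From P14 to P28, 0 rose and 22 fell, where 5.68% of all genes rose and 8.76% fell. At an unadjusted p under 0.05 with a log2 fold change over 0.75, 0 members rose in that last step, and edgeR and DESeq2 on the recovered reads also called 0.

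The median log2 fold change of the members was 1.65, 3.01 and -2.05 in the 3 steps, and that of all genes tested was 0.037, -0.086 and -0.12. With library totals in place of size factors the median of all genes was 0.095, -0.34 and -0.35. The members' medians became 1.78, 2.76 and -2.28, which relative to all genes was 1.69, 3.10 and -1.94 against 1.62, 3.10 and -1.93 with the deposited scaling. The share of higher genes among all genes called went from 51.9 to 32.9% in the second step and from 39.3 to 19.1% in the third. Without P7 replicate 2, P14 replicate 3 and P28 replicate 3 together, the 3 steps had 16, 24 and 0 members that rose and 3, 0 and 20 that fell. Between P1 and P28, 21 members were higher at P28 and 4 lower, where 14.6% of all genes were higher and 20% lower, and among the genes called the share of higher ones was 42.3%, or 21.1% with library totals. Neighbouring steps share the libraries of an age, so their counts are not independent of each other.

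**Figure D2:**
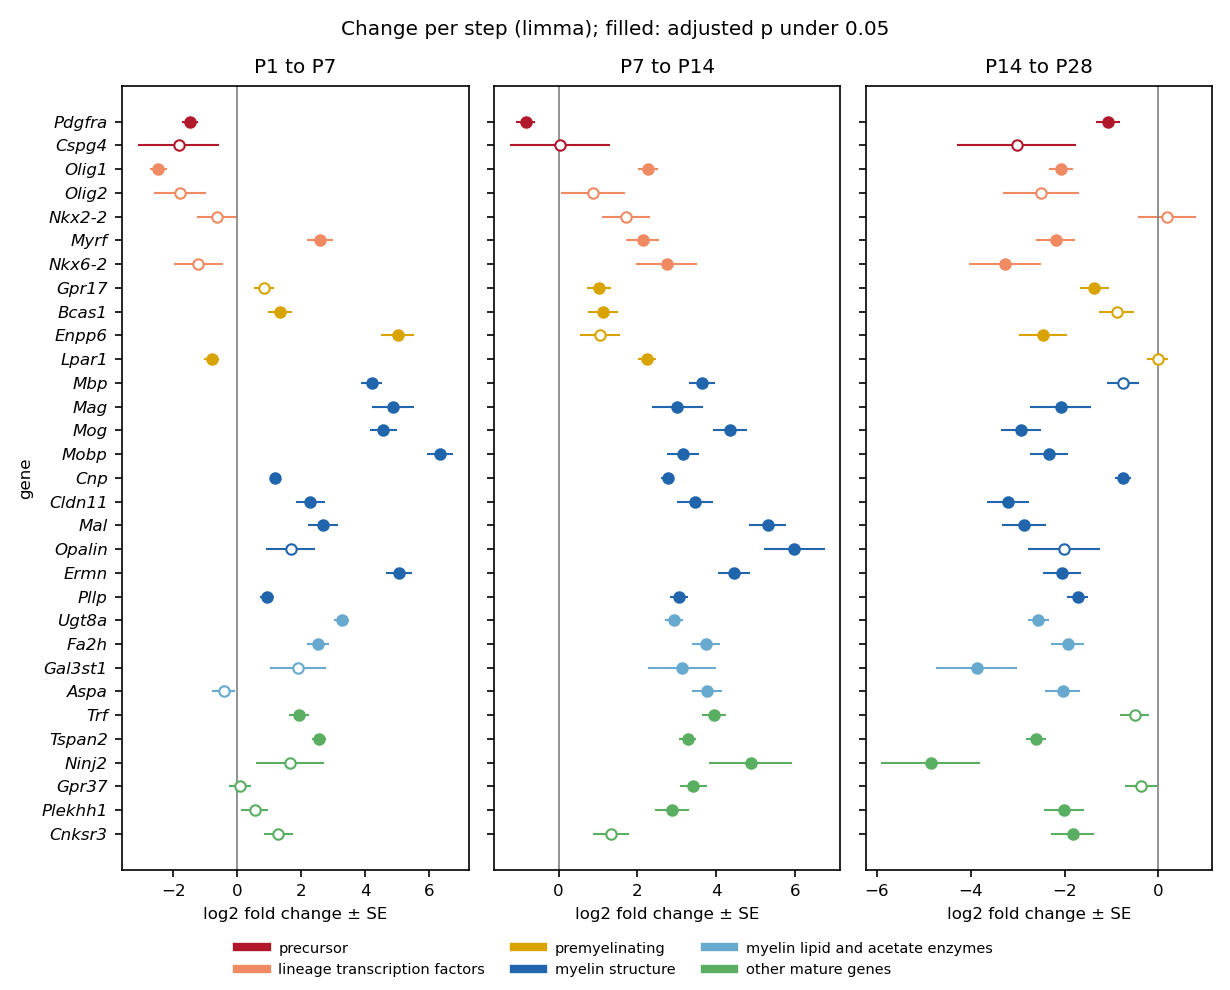
Log2 fold change ± standard error of each of the 31 members in the 3 consecutive steps (limma, 3 libraries per age), coloured by role, with filled points at an adjusted p under 0.05. In the first step the 10 myelin structure genes lay between 0.94 and 6.35, in the second the 10 myelin structure genes were all filled and positive, and in the third 22 points were filled and negative.

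Both precursor genes were lower at P28 than at P1. Pdgfra (chr5:75152292-75198215 in GRCm38), the receptor for the mitogen PDGF, stood at 3005, 4772 and 3161 normalized counts at P1, at 1276, 1349 and 1219 at P7, at 805, 729.9 and 624 at P14 and at 475, 231 and 352 at P28. The 4 ages did not overlap, and its level at P28 was 9.67% of that at P1. It fell by 1.48 on the log2 scale from P1 to P7 (SE 0.25, adjusted p = 0.00224), by 0.84 to P14 (adjusted p = 0.0276) and by 1.08 to P28 (adjusted p = 0.0119). The middle call was lost without any one P7 library, P14 replicate 2 or P14 replicate 3 (adjusted p 0.0666 to 0.0975), while the decline from P1 to P28, of -3.40 (adjusted p = 2.25e-07), was called without any one library. Exons of Pdgfra share 652 of 10024 bases with other annotated genes.

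Cspg4 (chr9:56865033-56899870), which encodes NG2, stood at 609.7, 699 and 533 at P1, at 124, 178 and 227 at P7, at 249, 154 and 140.1 at P14, and at 48.2, 0 and 207 at P28. P1 lay above the other ages, P7 and P14 overlapped, and P28 replicate 2 had no read. Its change from P1 to P28 was -4.82 ± 1.27 on the log2 scale (adjusted p = 0.0094), a size that depends on the pseudocount because of the library at 0, and -2.60 without that library. The step from P1 to P7 was -1.83 (adjusted p = 0.519, or 0.0239 without P28 replicate 2), and that from P14 to P28 was -3.02 (adjusted p = 0.126). The latter was -0.80 without P28 replicate 2 (adjusted p = 0.297) and -4.65 without P28 replicate 3 (adjusted p = 0.0128). The spread of the P28 libraries enters each of these tests, since the fit shares one spread per gene over the 4 ages. From P7 to P14 the value was 0.03, and -0.22 with library totals.

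Of the 5 transcription factors of the lineage, 1 rose and 1 fell in the first step. In the second 3 rose, and in the third 3 fell. By sign alone, 4 of 5 were negative in the first step, 5 of 5 positive in the second and 4 of 5 negative in the third. The exceptions were Myrf in the first (2.60, adjusted p = 0.00156) and Nkx2-2 in the third (0.19, adjusted p = 0.871). Shares of all genes tested are those given with all members, and counts this small were not tested against them. Olig1 (chr16:91269772-91271933), a basic helix-loop-helix factor of precursors and oligodendrocytes, stood at 2027, 2446 and 1542 at P1, at 424, 239.5 and 444 at P7, at 1822, 1502 and 1874 at P14, and at 327, 429 and 487 at P28. It was high at P1 and P14 and low at P7 and P28, with no overlap between neighbouring ages. The steps were -2.46 ± 0.26 (adjusted p = 7.68e-05), 2.27 ± 0.26 (adjusted p = 2.66e-05) and -2.07 ± 0.26 (adjusted p = 0.000409).

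Its neighbour Olig2, the factor required for specification of the lineage, stood at 1745, 2008 and 1221 at P1, at 468, 382 and 569 at P7, at 628, 883 and 1112 at P14, and at 611, 262 and 20.3 at P28. Neighbouring ages did not overlap, and the lowest P28 library lay far below the other 2. Its steps were -1.80 ± 0.81, 0.87 ± 0.81 and -2.50 ± 0.81, with adjusted p of 0.237, 0.52 and 0.0531. The first reached 0.00271 without P28 replicate 3. The third ranged from -3.51 to -1.09 with single libraries left out, at -1.09 without P28 replicate 3, where it was not called, and was called without P28 replicate 1 or 2 (0.00636 and 0.0454). From P1 to P28 the change was -3.43 (adjusted p = 0.00482), and -2.02 without P28 replicate 3.

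Myrf (chr19:10208272-10240748) encodes the membrane-bound regulator that switches on myelin genes. It stood at 102, 91.5 and 55.3 at P1, at 408, 503 and 574 at P7, at 2003, 2465 and 2006 at P14, and at 514, 948 and 214 at P28. It rose by a log2 fold change of 2.60 ± 0.42 (adjusted p = 0.00156) and then 2.13 ± 0.42 (adjusted p = 0.00209), and fell by 2.19 to P28 (adjusted p = 0.00426). It was the 1 factor of the 5 that rose in the first week.

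The homeobox gene Nkx6-2 was low, at 26.5, 60 and 25.7 at P1, 20.7, 7.85 and 17.8 at P7, 204, 83.6 and 61.9 at P14, and 21.9, 9.44 and 4.06 at P28. It rose by 2.75 from P7 to P14 (adjusted p = 0.0207) and fell by 3.27 on the log2 scale to P28 (adjusted p = 0.0132). Without P14 replicate 1, the highest library, these were 0.0921 and 0.0598, and the first was also lost without P7 replicate 2 (0.0931) or P7 replicate 3 (0.0514). From P1 to P28 the change was -1.74 (adjusted p = 0.0957, or 0.033 without P28 replicate 1).

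Nkx2-2, a homeobox factor of differentiating precursors, stood at 73.2, 61.4 and 41.6 at P1, 70.9, 17 and 40.3 at P7, 163, 150.2 and 73.8 at P14, and 80.4, 136 and 246 at P28. None of its steps was called, and the highest mean moved from P28 to P14 with library totals or with 1 library left out. The step from P7 to P14 was 1.71 (adjusted p = 0.0647), and it was under 0.05 without P7 replicate 1, P28 replicate 1 or P28 replicate 3 (0.0418 to 0.0479). Its exons share 278 of 2875 bases with the antisense gene Nkx2-2os.

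Of the 4 premyelinating genes, 2 rose and 1 fell in the first step, 3 rose in the second and 2 fell in the third. At P7 their median level was 46.9% of the highest mean, against 8.58% for the 10 genes of myelin structure. Enpp6 (chr8:46986887-47096762), a choline phosphodiesterase of newly formed oligodendrocytes, stood at 76.9, 19.3 and 30.3 at P1, at 1095, 1259 and 1212 at P7, at 2230.3, 2849 and 2328 at P14, and at 688, 747 and 173 at P28. Its largest step was the first, of 5.02 ± 0.51 (32.4-fold, adjusted p = 6.56e-05). The second was 1.05 (adjusted p = 0.175, or 0.0488 without P28 replicate 3), and the third was -2.46 ± 0.51 (adjusted p = 0.00693). The second step minus the first was -3.97 ± 0.88 (adjusted p = 0.00869), which remained under 0.05 with each library left out in turn.

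Gpr17, a receptor expressed as precursors commit to differentiate, stood at 944, 1047 and 574 at P1, at 1217, 1577 and 1725 at P7, at 2846, 2735 and 3577 at P14, and at 699, 1901 and 1228 at P28. Neighbouring ages did not overlap. Its steps were 0.85 (adjusted p = 0.129), 1.02 ± 0.31 (adjusted p = 0.0302) and -1.36 ± 0.31 (adjusted p = 0.011). The second was lost without any one P7 or P14 library (adjusted p 0.0513 to 0.124) and the third without P14 replicate 3 (0.0529). Between P1 and P28 the difference was 0.51 (adjusted p = 0.224), from 0.16 to 0.88 with single libraries left out (adjusted p = 0.0239 without P28 replicate 1).

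Bcas1, which marks premyelinating and early myelinating cells, stood at 535, 379 and 494 at P1, at 1326, 1040.5 and 1170.5 at P7, at 3052, 2283 and 2407 at P14, and at 1989, 2235 and 589.6 at P28. It rose by 1.34 ± 0.37 (adjusted p = 0.0414) and 1.12 ± 0.37 (adjusted p = 0.0448). Both calls lay near the threshold and were lost without any one of the P1, P7 or P14 libraries (adjusted p 0.0584 to 0.162 and 0.0518 to 0.144). The change from P14 to P28 was -0.89 (adjusted p = 0.124). It was -0.28 without P28 replicate 3, the lowest library (adjusted p = 0.372), and -1.24 without P28 replicate 2 (adjusted p = 0.0385), and that from P1 to P28 was 1.57 (adjusted p = 0.00496).

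Lpar1 (chr4:58435255-58553898), a lysophosphatidic acid receptor, took another course. It stood at 494, 913 and 524 at P1, at 382, 293 and 397 at P7, at 1650.0, 1729 and 1682 at P14, and at 1670.4, 1532 and 1811 at P28. The P14 and P28 libraries overlapped, with a step of -0.02 ± 0.23 (adjusted p = 0.974). The rise from P7 to P14 was 2.25 ± 0.23 (adjusted p = 9.67e-06). The first step, -0.80 (adjusted p = 0.0448), was lost without P1 replicate 2, where it was -0.52, or any one P7 or P14 library (0.0618 to 0.194). At P28 Lpar1 stood at 99.1% of its highest mean, the highest such share among the 4 premyelinating genes.

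**Figure D3:**
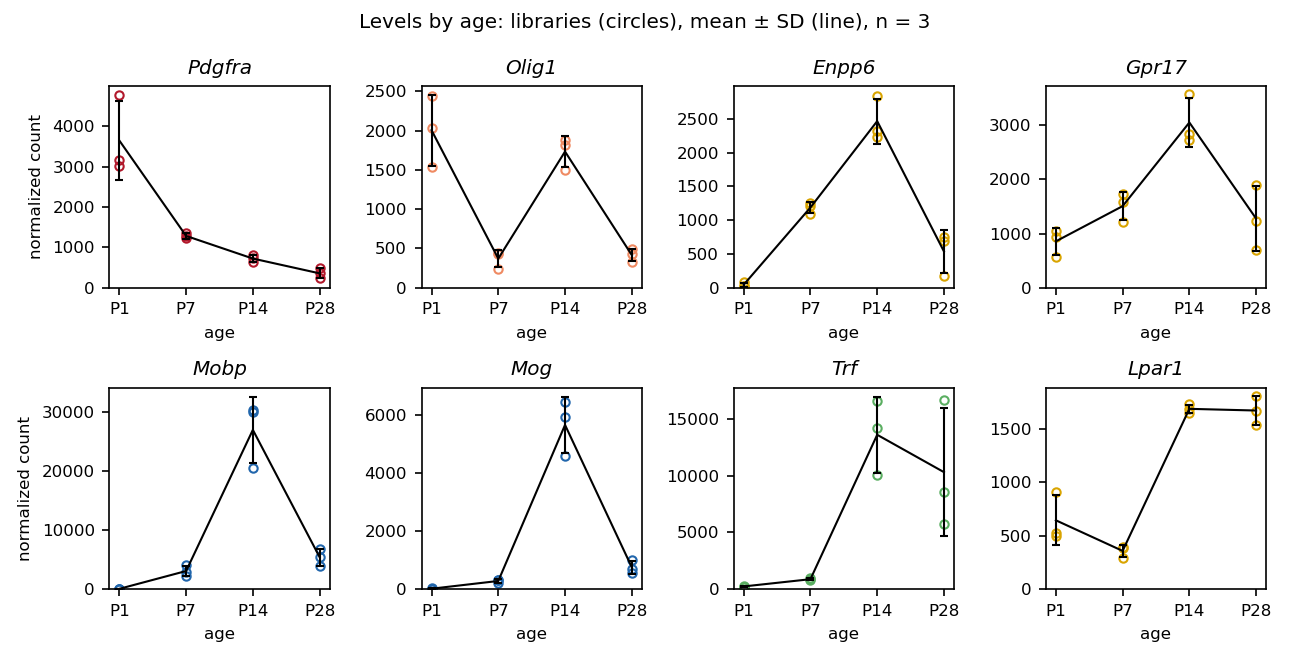
Normalized counts of 8 members by age, with each library as a circle and the mean ± SD of 3 libraries as a line, on a linear axis from 0 for each gene. Pdgfra fell with each age, Olig1 was high at P1 and P14, Enpp6 was at 1095 or more in each P7 library, Mobp and Mog stood highest at P14, and Lpar1 and Trf overlapped between P14 and P28.

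The genes of myelin structure rose in both of the first weeks. Of the 10, 9 rose in the first step and 10 in the second, with median log2 fold changes of 3.45 and 3.55, and 8 fell in the third (median -2.07). Each of the 10 was higher at P28 than at P1. Mbp, at P14 the highest of them per kilobase of exon, stood at 900.1, 704 and 338 normalized counts at P1, at 9820.4, 9324 and 14961 at P7, at 100186, 125612 and 212767 at P14, and at 85741, 95728 and 67726 at P28. Per kilobase its means were 76.4, 1342, 17262 and 9808. The steps were 4.21 ± 0.33 (adjusted p = 1.36e-05), 3.64 ± 0.33 (adjusted p = 3.99e-06) and -0.76 ± 0.33 (adjusted p = 0.142). P14 replicate 3 was the highest library for Mbp, although it was the lowest of its age for most other myelin genes.

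Mobp (chr9:120149707-120181484), which encodes a small basic protein of compact myelin, had the largest first step of the 31 members. It stood at 82.4, 20.7 and 25.7 at P1, at 2257, 2887 and 4021 at P7, at 30331, 29881 and 20515 at P14, and at 5439, 6833 and 3931 at P28. Its steps were 6.35 ± 0.40 (81.5-fold, adjusted p = 1.22e-06), 3.16 ± 0.40 (adjusted p = 6.06e-05) and -2.33 ± 0.40 (adjusted p = 0.0023). The second step minus the first was -3.19 (adjusted p = 0.00718, or 0.0578 without P7 replicate 3).

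Mog (chr17:37010743-37023398), a surface protein of the outer sheath, stood at 4.31, 20.7 and 12.9 at P1, at 211, 305 and 325 at P7, at 5923, 6471 and 4602 at P14, and at 571, 995 and 696 at P28. Its steps were 4.56 ± 0.42, 4.34 ± 0.42 and -2.93 ± 0.42 (adjusted p = 3.22e-05, 6.87e-06 and 0.000788). Mag, the adhesion protein of the membrane that faces the axon, stood at 35.1, 12.1 and 1.51 at P1, at 229, 343 and 372 at P7, at 2667, 2756 and 2108 at P14, and at 722, 520.1 and 536 at P28. It rose by 4.86 (adjusted p = 0.000436) and 3.01 (adjusted p = 0.00436). Its fall to P28, of 2.09 on the log2 scale, lay near the threshold (adjusted p = 0.0466) and was lost with any one library left out other than P1 replicate 1 or 3 (0.056 to 0.123).

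Ermn, which encodes a cytoskeletal protein of the sheath, and Opalin, a membrane glycoprotein of the inner loop, were close to absent at P1. Ermn stood at 6.77, 4.29 and 3.03 at P1, at 135, 161 and 274 at P7, at 4555, 4650.4 and 2969 at P14, and at 1667, 657 and 810.0 at P28. It rose by 5.06 ± 0.41 (adjusted p = 1.4e-05) and 4.45 ± 0.41 (adjusted p = 4.06e-06), and the ratio of its mean at P28 to that at P1 was 223. Opalin stood at 0.615, 0.714 and 0.757 at P1, which is 1 read in each library, at 2.39, 10.5 and 3.1 at P7, at 387, 455 and 226 at P14, and at 58.5, 48.4 and 208 at P28. With 3 reads at P1, the ratio of P7 to P1 was 7.65 with a counting interval of 2.16 to 41.2, and that of P28 to P1 was 151 with an interval of 51.0 to 737. In the fit, which takes in the spread between libraries, the step from P1 to P7 was 1.68 and was not called (adjusted p = 0.241). Opalin had the largest rise from P7 to P14 of the 31 members, 5.98 ± 0.76 (adjusted p = 6.74e-05), and its step to P28 was -2.01 (adjusted p = 0.0933, or 0.0317 without P28 replicate 3).

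The other 4 myelin structure genes were already at 41.6 or more in each P1 library and had a larger fitted second step. Mal, a proteolipid of membrane traffic, stood at 138, 272 and 41.6 at P1, at 564, 844 and 920.1 at P7, at 33859, 31688 and 25227 at P14, and at 5166, 4260.2 and 3132 at P28. Its rise from P7 to P14 was 5.30 ± 0.47 (39.5-fold, adjusted p = 3.11e-06), after 2.69 (adjusted p = 0.00259) in the first week. Cldn11, the claudin of the tight junctions within myelin, stood at 41.8, 177 and 50.7 at P1, at 275, 332 and 503 at P7, at 4113, 4263 and 3459.9 at P14, and at 682, 313 and 358 at P28. Its steps were 2.29, 3.45 and -3.21 (adjusted p = 0.00582, 8.85e-05 and 0.000734).

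Cnp and Pllp had the smallest rises of the first week among the 9 that rose. Cnp, an enzyme of the non-compact channels of myelin, stood at 837, 1217 and 894 at P1, at 2092, 1989 and 2613 at P7, at 15493, 16012 and 13719 at P14, and at 8023, 9721 and 9121 at P28. Its steps were 1.19 ± 0.17, 2.76 ± 0.17 and -0.75 ± 0.17 (adjusted p = 0.000577, 1.79e-07 and 0.0098). Pllp, a proteolipid of the sheath, stood at 182, 194 and 132 at P1, at 327, 262 and 386 at P7, at 2982, 2869 and 2174 at P14, and at 759.9, 849 and 795 at P28. Its first rise, 0.94 (adjusted p = 0.0204), was lost without P1 replicate 3 (0.0762), P7 replicate 1 (0.0707) or P7 replicate 3 (0.112). Exons of Pllp share 1128 of 2083 bases with Gm45767 on the other strand, and reads of the pair may not be separable since the use of strand is not stated.

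Of the 4 enzymes of myelin lipid and acetate metabolism, 2 rose in the first step, 4 rose in the second and 4 fell in the third. Ugt8a (chr3:125865271-125938619), which makes galactosylceramide, stood at 148, 142 and 123 at P1, at 1142, 1454 and 1425 at P7, at 10373, 12816 and 7725 at P14, and at 2302, 1685 and 1293 at P28. Its steps were 3.27 ± 0.23, 2.92 ± 0.23 and -2.56 ± 0.23 (adjusted p = 3.79e-06, 1.16e-06 and 5.81e-05). Fa2h, which hydroxylates the fatty acids of these lipids, stood at 67.7, 50.7 and 53.8 at P1, at 286, 317 and 410.0 at P7, at 4984, 4813 and 3659 at P14, and at 1093, 2276 and 632 at P28. It rose by 2.53 and 3.73 and fell by 1.93 on the log2 scale (adjusted p = 0.000577, 5.92e-06 and 0.00363).

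Gal3st1, which sulfates galactosylceramide to sulfatide, was the lowest of the enzymes per kilobase at P14, with a mean of 102 against 2272 for Ugt8a. It stood at 8, 2.14 and 6.82 normalized counts at P1, at 26.3, 24.9 and 15.5 at P7, at 261, 240.1 and 122 at P14, and at 42.4, 14.2 and 2.7 at P28. Its rise from P7 to P14, 3.13 ± 0.87 (adjusted p = 0.0189), was lost without P7 replicate 1 or 3 or P14 replicate 1 or 2 (0.0503 to 0.0783), and it fell by 3.88 to P28 (adjusted p = 0.00982). Between P1 and P28 it differed by 1.15 (adjusted p = 0.321), from 0.31 to 2.08 with single libraries left out (adjusted p = 0.0444 without P28 replicate 3).

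Aspa, which releases acetate from N-acetylaspartate, started late. It stood at 62.8, 99.3 and 71.9 at P1, at 55.7, 51 and 64.3 at P7, at 1027, 920.3 and 509 at P14, and at 224, 189 and 162 at P28. P1 and P7 overlapped, with a step of -0.42 (adjusted p = 0.643), and the next was 3.76 ± 0.37 (adjusted p = 7.59e-06). The 2 steps differed by 4.19 ± 0.64 (adjusted p = 0.000679). It then fell by 2.04 to P28 (adjusted p = 0.00333), to a level above that at P1 by 1.30 (adjusted p = 0.0144, or 0.0581 without P1 replicate 1, and 0.0749 with library totals).

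Of the 6 other mature genes, 2 rose in the first step, 5 rose in the second and 4 fell in the third. Trf (chr9:103204001-103230444), which encodes the iron carrier transferrin, stood at 298, 199 and 201 at P1, at 783, 942 and 888 at P7, at 14171, 16581 and 10005 at P14, and at 8513, 16630.4 and 5747 at P28. It rose by 1.92 ± 0.31 (adjusted p = 0.00162) and 3.94 ± 0.31 (adjusted p = 1.16e-06). P14 and P28 overlapped, with a step of -0.51 (adjusted p = 0.293) that ranged from -0.93 without P28 replicate 2, the highest library (adjusted p = 0.0256), to -0.16 without P28 replicate 3. Exons of Trf share 2108 of 3320 bases with Gm20425 on the same strand, and how reads of overlapping genes were counted is not stated.

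Gpr37, an orphan receptor of oligodendrocytes, also kept much of its highest mean at P28, although its P28 libraries all lay below those of P14. It stood at 78.7, 141 and 55.3 at P1, at 81.2, 73.3 and 121 at P7, at 939, 1120.3 and 860.1 at P14, and at 639, 770.2 and 841 at P28. P1 and P7 overlapped, with a step of 0.08 (adjusted p = 0.96), the second step was 3.42 ± 0.34 (adjusted p = 9.14e-06) and the third -0.38 (adjusted p = 0.496). Its level at P28 was 77.1% of the highest mean.

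Tspan2, a tetraspanin of the sheath, stood at 137, 254 and 182 at P1, at 1112, 1031 and 1126 at P7, at 10460.2, 11824 and 9418 at P14, and at 1932, 1848 and 1446 at P28. Its steps were 2.55 ± 0.21, 3.27 ± 0.21 and -2.61 ± 0.21 (adjusted p = 1.4e-05, 2.7e-07 and 3.14e-05). Plekhh1 stood at 157, 249 and 223 at P1, at 256, 376 and 284 at P7, at 2842, 2664 and 1417 at P14, and at 953, 727 and 238 at P28. Of its steps, 0.55 (adjusted p = 0.587), 2.87 (adjusted p = 0.000262) and -2.01 (adjusted p = 0.0078), the last 2 were called. Its difference between P1 and P28, 1.41 (adjusted p = 0.0201), was lost without P1 replicate 1, P28 replicate 1 or P28 replicate 2 (0.0647 to 0.0828) and with library totals (0.0897).

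Ninj2, an adhesion gene, was near 0 in most libraries outside P14. It stood at 1.23, 0 and 0 at P1, at 2.39, 2.62 and 4.65 at P7, at 119, 136 and 104 at P14, and at 1.46, 28.3 and 0 at P28. With 2 reads in all at P1, the ratio of P7 to P1 was 7.85 (counting interval 1.71 to 72.9) and that of P28 to P1 was 24.2 (6.03 to 211), which rests on P28 replicate 2. In the fit neither difference was called, at 1.65 (adjusted p = 0.468) and 1.67 (adjusted p = 0.236), and the latter was 0.26 without P28 replicate 2. It rose by 4.87 ± 1.05 from P7 to P14 (adjusted p = 0.00421) and fell by 4.85 on the log2 scale to P28 (adjusted p = 0.00862). That fall was not called by edgeR on the recovered reads (adjusted p = 0.0635).

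Cnksr3, a scaffold protein gene, had its highest mean at P14 with a wide spread. It stood at 108, 75 and 85.6 at P1, at 189, 232 and 231 at P7, at 364, 537 and 814 at P14, and at 178, 281 and 70.3 at P28. Its steps were 1.28 (adjusted p = 0.117), 1.32 (adjusted p = 0.0541) and -1.83 (adjusted p = 0.0173). The last was lost without P14 replicate 3, the highest library (0.0841), whereas the first reached 0.0256 without P28 replicate 3 and the second 0.00993 to 0.0469 without P14 replicate 1, P28 replicate 2 or P28 replicate 3. Between P1 and P28 the difference was 0.78 (adjusted p = 0.203), from 0.34 to 1.33 with single libraries left out (adjusted p = 0.0138 without P28 replicate 3).

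The order of the genes was read from the age at which each mean, by straight lines between the 4 ages, first reached 50% of its highest value. This applied to the 27 members whose highest mean came after P1, and it is a description with no test. Gpr17 reached it at day 7.09, Enpp6 at day 7.25 and Bcas1 at day 7.56. Cnksr3 followed at day 8.35, Myrf at day 9.46 and Lpar1 at day 9.56. The 10 genes of myelin structure lay between day 9.89 (Cnp) and day 10.4 (Opalin), with a median of 10.2, and the 4 enzymes between day 9.98 and day 10.2. Gpr17, Enpp6 and Bcas1 thus reached 50% before all 10 myelin structure genes. This age depends on the level at P1. There Bcas1 stood at 18.2% of its highest mean, and Gpr17 higher, against a median of 0.471% for the myelin structure genes. In the first step Gpr17 was not called (0.85) and Bcas1 rose by 1.34. The median of the myelin structure genes was 3.45, and of the 3 only Enpp6 (5.02) rose by more. The myelin structure genes stood at 14.8% or less at P7 and were highest at P14, so straight lines place them close together.

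With each library left out in turn, Gpr17 lay between day 5.98 and 7.55, Enpp6 between 6.74 and 7.53 and Bcas1 between 6.94 and 7.88, while no myelin structure gene lay below 9.85. With library totals Gpr17 moved to day 5.01, Enpp6 to 6.18, Bcas1 to 6.20 and Cnp to 9.75. Since most values fall between P7 and P14, where no library was taken, differences of fractions of a day among the myelin genes are not resolved by this design.

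The 2 steps of the first 2 weeks were also compared for each gene, as the signed log2 change from P7 to P14 minus that from P1 to P7, which is not a test of the order. This difference was called above 0 for 9 of the 31 members and below 0 for 2, where 6.49% of all genes were called above 0 and 5.39% below. The 9 were Olig1, Lpar1, Cnp, Mal, Opalin, Pllp, Aspa, Trf and Gpr37, and the 2 were Enpp6 and Mobp. The first step of Olig1 and Lpar1 was a fall, and that of Aspa, which was not called, was -0.42, so for these 3 the difference holds a change of direction. For Mal (adjusted p = 0.0498), Opalin (adjusted p = 0.0482) and Trf (adjusted p = 0.0246) the call was lost with 10, 9 and 6 of the 12 libraries left out in turn, with adjusted p up to 0.218, 0.223 and 0.11. Those of Olig1, Lpar1, Cnp, Pllp, Aspa, Gpr37 and Enpp6 remained with each library left out. Of members not called here, Plekhh1 (adjusted p = 0.0575) was called without P14 replicate 3, P28 replicate 1 or P28 replicate 3 (0.00627 to 0.0403), Nkx6-2 (0.072) without P28 replicate 1 or 3 (0.0366 to 0.0423), and Olig2 (0.272) without P28 replicate 3 (0.00485). Among all genes called in this contrast 54.6% were above 0, and 36.3% with library totals, under which 6 members were above 0 and 2 below.

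**Figure D4:**
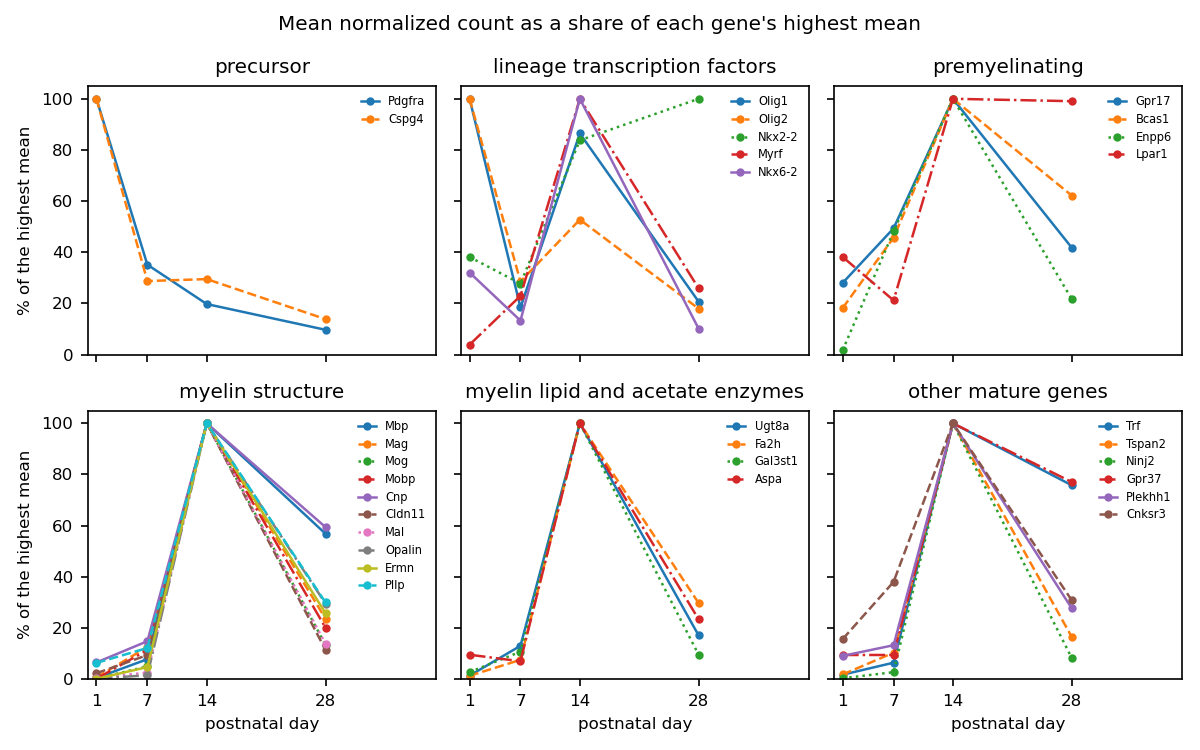
Mean normalized count at each age as a percentage of the gene's own highest mean, with one line per member and one panel per role, against postnatal day on a linear axis. At P7 the premyelinating genes Gpr17, Bcas1 and Enpp6 stood near the middle of their range while the 10 myelin structure genes had a median of 8.58%, and at P28 Lpar1, Gpr37 and Trf stood at 75.8% or more.

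At P28 the share of the highest mean varied widely within the roles, whose ranges overlapped, and the roles were not tested against each other. The medians were 11.8% for the precursor genes, 20.7% for the transcription factors (10.1 to 100%), 52.0% for the premyelinating genes (21.7 to 99.1%), 24.7% for the myelin structure genes, 20.2% for the enzymes (9.52 to 29.7%) and 29.3% for the other mature genes (8.28 to 77.1%). Among the myelin structure genes the share ran from 11.4% (Cldn11) to 59.4% (Cnp), and Mbp kept 56.8%. The replicates spread widely at that age, with a median coefficient of variation of 47.2% over the members and 46.4% over all genes tested. At P14 it was 16.4% over the members and 29.1% over all genes.

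Genes of the same lineage outside the 31 were counted from lists of 15 further precursor genes and 40 further myelin genes. The shares of all genes tested in each step are those given with the 31 members. Of the 40 myelin genes, 14 rose and 3 fell from P1 to P7, 28 rose and 0 fell from P7 to P14, and 0 rose and 18 fell from P14 to P28, with medians of 1.17, 2.33 and -1.31 on the log2 scale. Tubb4a, a tubulin of oligodendrocytes and neurons, had steps of 2.09, 2.45 and -0.86 (adjusted p = 1.83e-05, 8.26e-07 and 0.00756).

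Enpp2, the enzyme autotaxin that makes lysophosphatidic acid, stood at 33249.8, 31041 and 9086 at P14 and at 30876, 39635 and 4563 at P28, and none of its consecutive steps was called. Its replicate 3 was the lowest library at both of these ages. Klk6, a secreted protease, had the largest change of its list from P7 to P14, 5.15 ± 0.93 (adjusted p = 0.00117), from means of 5.59 to 318. Slc45a3, a sugar transporter, had the largest from P14 to P28, -5.17 ± 1.00 (adjusted p = 0.0047), with 2 of 3 P28 libraries listed at 0.

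The 15 further precursor genes were divided. In the first step 1 rose and 4 fell, in the second 3 rose and 2 fell, and in the third 2 rose and 4 fell, with medians of 0.02, 0.04 and -0.36. Of all genes tested, 3.47% rose and 4.24% fell in the first step, 10.8% and 10% in the second, and 5.68% and 8.76% in the third. Counts this small were not tested against these shares. Ptprz1, a receptor phosphatase of precursors that astrocytes also express, stood at 56326, 69209 and 50418 at P1, at 24184, 10576 and 19178 at P7, at 22757, 26546 and 20526 at P14, and at 53109.8, 52117 and 60706 at P28. It fell by 1.77 in the first step (adjusted p = 0.000463) and rose by 1.25 in the last (adjusted p = 0.0047), unlike Pdgfra, which fell in that step.

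Pcdh15, a protocadherin of precursors, stood at 403, 143 and 336 at P14 and at 10.2, 22.4 and 2.7 at P28, the largest change of its list in that step, -4.77 ± 0.56 (adjusted p = 0.00029). Vcan, a matrix proteoglycan, changed by -1.90 from P7 to P14 (adjusted p = 4.9e-05). Sox8, a partner of Sox10 that astrocytes also express, had steps of -1.04, 1.66 and 0.08 (adjusted p = 0.0104, 0.000116 and 0.842).

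Markers of other cell types moved over the same ages, and their part in the results above was not tested. Of the 14 astrocyte markers, 1 rose and 10 fell from P1 to P7, 12 rose and 0 fell from P7 to P14, and 10 rose and 0 fell from P14 to P28. The myelin genes and the astrocyte markers thus both rose in the second step. In the third, 10 astrocyte markers rose while 8 of the 10 myelin structure genes fell. Aldh1l1 itself had means of 5008 ± 1320.0, 1469.7 ± 525, 1879 ± 86.1 and 2921 ± 446 (SD, n = 3) at the 4 ages. The 10 granule neuron markers summed to between 2656 and 5211 at P1, 11977 and 13086 at P7, 13375 and 24711 at P14, and 11691 and 13469 at P28, with Gabra6 at 0 in the P1 libraries and Atoh1 at 0 in those of P14 and P28. From P7 to P14, 5 of the 10 had a positive and 5 a negative log2 fold change. P14 replicate 3, which had the highest Mbp, also had the highest granule neuron sum.

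The 6 Purkinje cell markers summed to between 997 and 1292 at P1, 1666 and 2407 at P7, 1676 and 2044 at P14, and 1543 and 4179 at P28. From P14 to P28, 5 of the 6 had a negative log2 fold change and 0 were called, so this sum does not stand for each gene. The 10 microglia markers summed to 1022 to 1988, 1599 to 2422, 2780.1 to 4267 and 2181 to 2923 at these ages, with their highest range at P14. Gene by gene, 2 of the 10 were called higher from P7 to P14, where 10.8% of all genes rose. From P14 to P28, 0 were called. The 8 endothelial markers summed to 810.2 to 3825, 1718 to 10602, 5213 to 6172 and 3257 to 4341. Of the 6 red blood cell markers, 5 haemoglobin genes were listed at 0 in each of the 12 libraries. The remaining marker had reads in each library, from 2.92 normalized counts in P28 replicate 1 to 118 in P7 replicate 2. Whether reads on the haemoglobin genes were counted was not tested, so these zeros do not show that blood RNA was absent. The plot of these sums shows how each list varied by library.

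**Figure D5:**
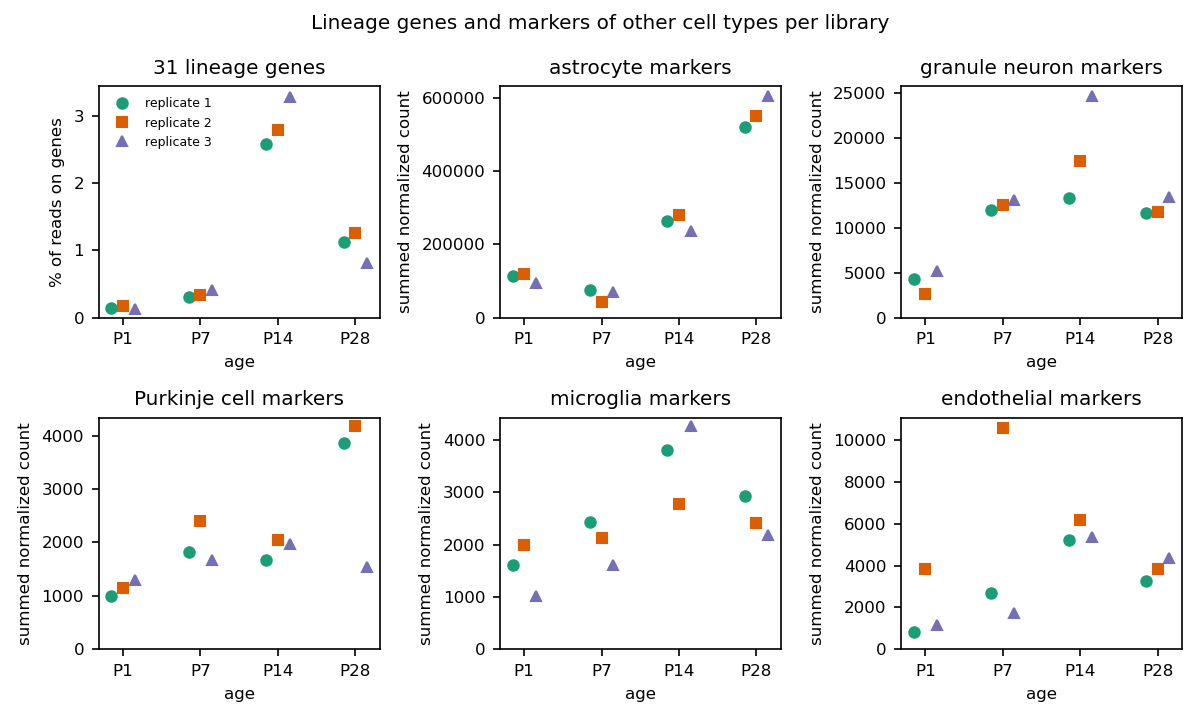
Share of reads on genes taken by the 31 lineage genes (first panel, in percent) and summed normalized counts of 5 marker lists of other cell types, by age, with a symbol for each replicate and axes from 0. The lineage genes were highest at P14 (2.58 to 3.29%), the astrocyte markers at P28 (520520 to 603744), and P7 replicate 2 stood apart in the endothelial markers at 10602.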

How the data were processed

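RNA of GFP-positive cells sorted from the cerebellum was converted with the Trio kit and sequenced as read pairs. The authors aligned reads with STAR to mm10, counted them on the UCSC gene models and scaled the counts in DESeq2 (the submitters' processing notes list STAR 2.5.0a and DESeq2 1.30.1). Use of strand and treatment of overlapping genes are not given in the sources used here. The deposited values are a signal, the counts over a size factor that each library has. Each was a whole multiple of the library's smallest value for 100% of values (tolerance 0.001 reads), so reads were recovered for depth and for edgeR and DESeq2 as alternatives. Columns were matched through the labels. All column names carry P28, whatever the age, so ages rest on the labels.

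limma 3.58.1 (R 4.3.3) was fitted to log2(value + 1) with a mean per age over 12 libraries and a variance trend, two-sided, with Benjamini-Hochberg adjustment over 15464 genes. edgeR 4.0.16 called 16, 26 and 0 members higher in the 3 steps and DESeq2 1.42.0 called 17, 27 and 0. Exonic lengths and coordinates are from GENCODE on GRCm38. Precision was limited by 3 libraries per age and 6399499 to 14733985 reads. Tests were checked on simulated counts with the same spread for all genes and ages, which does not cover the wider spread at P28. The members, the gene lists (further precursor and myelin genes, and markers of astrocytes, granule neurons, Purkinje cells, microglia, endothelium and red blood cells) and the tests were chosen with earlier results of these data known. Named were all members, Aldh1l1, and from the lists of further genes the 3 highest means and the largest called change per step. Results of some single genes under this rule are not reported here. Alternatives were other scalings, pseudocounts of 0.1 and 10, other filters, the time points compared alone, an unadjusted p under 0.05 with a log2 fold change over 0.75 (the study's threshold as read here), a replicate block and each library left out. Leaving out 3 libraries together was chosen after seeing the data.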

Additional observations from a re-analysis of the deposited data

How the results depend on the processing

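The counts of members called stayed within 1.5 times of those reported under each setting, other than those given here. With only the time points compared, 14 members had a second step minus first step called above 0. The same setting lost 7 of the 22 falls to P28 (Pdgfra, Nkx6-2, Gpr17, Gal3st1, Ninj2, Plekhh1 and Cnksr3, adjusted p 0.0687 to 0.116) and the differences between P1 and P28 of Cspg4, Aspa and Plekhh1 (0.0622 to 0.0808). With 3 libraries left out together, 0 members fell from P7 to P14 and 1 had that difference called below 0. The median log2 fold change from P1 to P7 was 1.18 with a pseudocount of 10 and 1.28 for the 23 members with at least 10 reads in every library. Library totals gave a median of 2.10 from P1 to P28, 0.90 for the difference of the steps, 410.3 for the median of the 31 means at P7, and 0 members highest at P28. A pseudocount of 10 gave 1.57 for the difference of the steps. The cause was not tested. Of the comparisons of single members with settings that left out no single library, 1708 kept their direction and call, 45 lost and 58 gained a call, and 9 reversed.

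With each library left out, 14 to 17 members rose and 2 to 4 fell from P1 to P7 (medians 1.42 to 1.77), 21 to 28 rose and 0 to 1 fell from P7 to P14 (2.92 to 3.18), 0 rose and 19 to 24 fell from P14 to P28 (-2.26 to -1.77), 19 to 23 were higher and 4 to 5 lower at P28 than at P1 (2.21 to 2.70), and 6 to 12 had the difference of the steps called above 0 and 1 to 2 below (1.12 to 1.65).

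The values that reversed in sign were all of members not called. With library totals they were Cspg4 from P7 to P14 (-0.22), Nkx2-2 from P14 to P28 (-0.047) and the step differences of Cnksr3 (-0.28) and Gpr17 (-0.14). With a pseudocount of 10 they were the step differences of Ermn (0.66) and Mog (0.57), and with 3 libraries left out together Nkx2-2 from P14 to P28 (-0.58) and the step differences of Cnksr3 (-0.16) and Mog (0.068). With single libraries left out, Gpr37 from P1 to P7 ranged from -0.23 to 0.44, Cspg4 from P7 to P14 from -0.22 to 0.24, Lpar1 from P14 to P28 from -0.076 to 0.044, Nkx2-2 from P14 to P28 from -0.22 to 0.58, and the step differences of Cnksr3 from -0.25 to 0.33, Gpr17 from -0.12 to 0.44 and Mog from -0.67 to 0.35.

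For libraries of different ages with the same replicate number, deviations from the age means correlated between -0.029 and 0.139, with 1 of 18 pairs over 0.1. Other pairs lay between -0.105 and 0.054, and 9 of 12 libraries correlated best with one of their own number. Whether such libraries share more than the number was not tested. The replicate block left the counts that rose at 16, 25 and 0, lost the first step of Lpar1 (adjusted p = 0.0657) and the step difference of Opalin (0.0694), and gained that of Plekhh1 (0.036).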
